A study of Mus musculus with 12 samples.

Results

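The 76 genes described here encode proteins of the mitochondrial ribosome. They are the genes of the deposited expression table whose name starts with Mrpl (47 genes, named for the large subunit) or Mrps (29 genes, named for the small subunit) followed by a digit, out of 23440 genes in all, and they were chosen by name, without use of their values. Messenger RNA was sequenced from mouse bone marrow-derived macrophages of the C57/BL6 strain, 3 libraries in each of 4 groups. M-BKO M1 and WT M1 cells had been primed with interferon gamma overnight and then given lipopolysaccharide (LPS) for 8 h, a treatment that activates macrophages to the inflammatory M1 state. M-BKO control and WT control cells had the same priming and no LPS, so that every group, controls included, saw interferon gamma. M-BKO cells came from Bmal1 fl/fl mice that carry Lyz2-Cre and so lose the clock transcription factor Bmal1 in myeloid cells. WT cells came from Bmal1 fl/fl mice, for which no Cre is named, so that the loss of Bmal1 and the Cre inserted in Lyz2 cannot be told apart. Mice of the study were adults matched for age and sex, and the number of mice behind each culture is not given for these libraries, so the p-values here describe how 3 cultures of a group scatter, which may be technical.

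Mitochondria keep a small genome that encodes a few membrane subunits of the respiratory chain and of ATP synthase, and a ribosome of their own makes these proteins. Its RNA comes from the mitochondrial genome, while its proteins are encoded in the nucleus, made in the cytosol and imported. Part of them descend from the bacterial ancestor and part were added during the evolution of mitochondria. Macrophages given LPS turn towards glycolysis and change the use of their mitochondria, and the study asked how Bmal1 affects this. Here the question is how the nuclear genes for the mitochondrial ribosome behaved in M1 activation, and whether they differed between M-BKO and WT cells.

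The labels and the cells were checked first. Arntl, the gene of Bmal1, was lower in each M-BKO library than in any WT library of the same treatment, at 3.13, 3.39 and 3.03 TPM (transcripts per 1000000) in M-BKO M1 cells against 5.47, 4.81 and 5.80 TPM in WT M1 cells, and at 2.31, 1.97 and 2.46 TPM in M-BKO controls against 7.71, 7.25 and 7.54 TPM in WT controls. These values cover the whole gene, including exons that a deletion can leave in place. Lyz2, into which the Cre is inserted, averaged 64.5 ± 13.4 TPM in M-BKO M1, 14993 ± 133 TPM in WT M1, 54.9 ± 7.20 TPM in M-BKO control and 33007 ± 1470 TPM in WT control cells (SD, n = 3 each). TPM sum to the same total in each library, of which Lyz2 is part. The 5 macrophage markers measured were above 1 TPM in each group and summed to 2320 to 2410 TPM in M-BKO M1, 2140 to 2330 TPM in WT M1, 4880 to 5000 TPM in M-BKO control and 4230 to 4420 TPM in WT control libraries. Neutrophil markers (5 measured, Elane and Mpo under 1 TPM) summed to 116 to 123, 80.7 to 88.5, 294 to 338 and 224 to 260 TPM in the same order of groups. Dendritic cell markers (5 measured, Flt3, Zbtb46 and Siglech under 1 TPM) summed to 11.1 to 12.9, 11 to 14.4, 61.4 to 65.1 and 76.6 to 85.7 TPM. These sums, that of the macrophage markers included, were lower after M1, as was the sum of the members. The genes behind a sum did not all move alike. The 2 dendritic cell markers tested had log2 fold changes of -3.28 and 1.36 in M-BKO and -3.70 and 1.12 in WT cells. Of the 5 macrophage markers 3 were called lower and 1 higher in M-BKO, and 3 lower and 2 higher in WT cells. The 3 neutrophil markers tested were all higher in M-BKO than in WT cells after M1, at an adjusted p under 0.05 in limma. Their log2 fold changes were 0.49 to 0.57, and 5.87% of all genes tested were higher in that comparison. Of the 5 macrophage markers 1 was higher there as well. In controls 1 neutrophil marker and 3 macrophage markers were higher in M-BKO cells, where 4.56% of all genes were. Of the 2 dendritic cell markers tested 1 was lower in M-BKO controls, where 1.12% of all genes were. The part of neutrophils and dendritic cells in the results was not tested. Markers of B cells, of T and NK cells, of fibroblasts and of erythroid cells summed to at most 5.84 TPM per list. The third WT control library stood furthest from its group mean, with residuals of 0.142 (SD, log2 scale) against 0.0777 to 0.108 in the other 11 libraries.

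Messenger RNA of every member was found in these macrophages. Each of the 76 genes met the minimum set for testing, 1 TPM or more in 3 or more of the 12 libraries. The same held for 10822 of all 23440 genes. TPM are scaled per transcript length, so that levels can be compared between genes. The middle member had 29.5 TPM in M-BKO M1, 29.9 TPM in WT M1, 44.1 TPM in M-BKO control and 41.8 TPM in WT control cells. Members differed widely among themselves, by 38.8-fold between the highest and the lowest in M-BKO controls and by 36.3-fold in WT controls. Mrps21, a small-subunit homolog of a bacterial protein, was the highest in controls, with 234, 246 and 257 TPM in M-BKO and 228, 228 and 225 TPM in WT control libraries. After M1 the highest was Mrpl52, described below. At the low end, Mrps25, a small-subunit protein that mitochondria added, had 2.73, 2.45 and 2.54 TPM in M-BKO M1 and 2.47, 2.15 and 2.62 TPM in WT M1 libraries, against 8.11, 8.07 and 7.82 TPM in M-BKO and 7.16, 7.27 and 7.63 TPM in WT controls. Mrpl1 and Mrpl17 were low as well, at 4.29 to 8.60 TPM in the group means. Replicates lay close together, with a median coefficient of variation over the members of 4.80% in M-BKO M1, 5.88% in WT M1, 3.77% in M-BKO control and 5.16% in WT control libraries.

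As a group the members took a smaller share of the mRNA in M1 cells. Summed over the 76 genes, libraries held 2976 to 3051 TPM in M-BKO M1 and 2908 to 3065 TPM in WT M1 cells, against 4299 to 4357 TPM in M-BKO control and 4117 to 4211 TPM in WT control cells. No M1 library overlapped with a control library. The M1 mean was 0.696 times the control mean in M-BKO and 0.719 times in WT cells. A single gene, Mrpl52, went the other way and made up 11.3 to 11.7% of the sum in M-BKO M1 and 11 to 12.1% in WT M1 libraries, against 1.73 to 2.02% in M-BKO and 1.73 to 2.15% in WT controls. Without it the ratios were 0.627 in M-BKO and 0.647 in WT cells. The summed small subunit stood at 0.584 and 0.608 of the control level in M-BKO and WT, and the large subunit, with Mrpl52 in it, at 0.754 and 0.775. These are shares of each library's mRNA, and in such bulk samples less RNA per cell cannot be told apart from fewer cells of a kind.

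**Figure D1:**
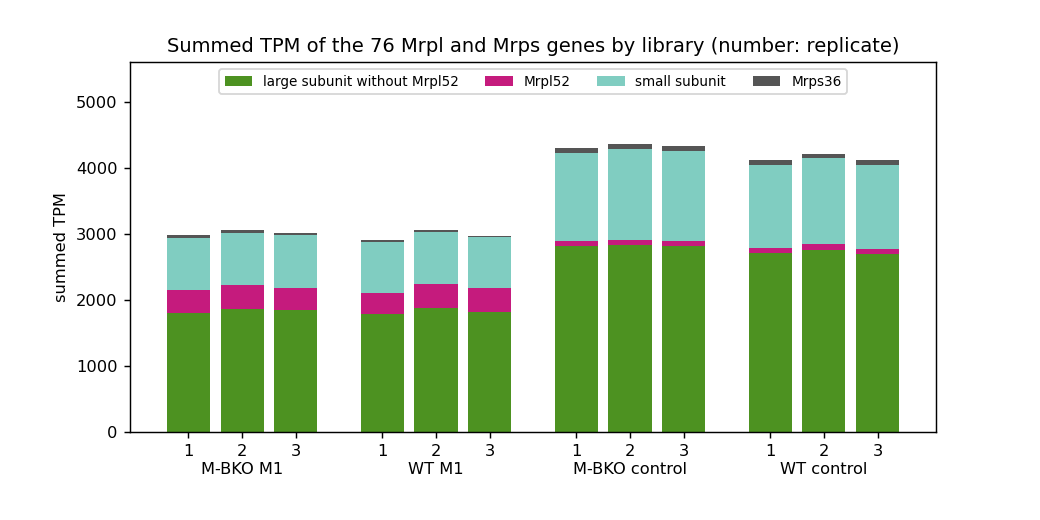
Summed TPM of the 76 genes (y axis, from 0) in each of the 12 libraries, stacked as large subunit without Mrpl52, Mrpl52, small subunit and Mrps36, which belongs to neither subunit list. The 6 M1 libraries lie between 2908 and 3065 TPM and the 6 control libraries between 4117 and 4357 TPM, while the Mrpl52 segment is larger after M1.

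What the genes share in sequence was looked at in their promoters, for which RefSeq windows of 300 bases (250 before and 50 after the start, mouse build GRCm38.p6, the same assembly as mm10) were at hand for 67 of the 76 members. Short motifs known for housekeeping and mitochondrial genes were searched on both strands: CCGGAAG (ETS factors, among them GABP), the NRF1 motif, AAGATGGC (YY1) and CACGTG (the E-box, to which Bmal1 binds with Clock). CCGGAAG was found in 24 members (35.8%), against 21.7% of the 8187 tested genes with a window, and AAGATGGC in 12 members (17.9%) against 5.86%. The NRF1 motif was found in 12 members (17.9%) against 12.4%. The E-box letters were found in 5 members, Mrpl2, Mrpl20, Mrpl36, Mrpl37 and Mrps18c, a share of 7.46% against 12.4% of tested genes. Counted over windows and all genes, the shares were 32.9% of 73 member windows against 8.86% of 32851 windows for CCGGAAG, 16.4% against 2.75% for AAGATGGC, 16.4% against 4.60% for the NRF1 motif and 9.60% against 7.15% for CACGTG. This second background counts windows and not genes, and includes genes that were not tested. Its median GC content was 52.7%, against 60.7% in windows of tested genes and 58.3% in member windows. The E-box share of members was below the first background and above the second. A match is a stretch of letters, and no binding was measured here.

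The windows of 4 members on which the results turn are shown, with matches in capitals. Mrpl52 (chr14:54426659-54426958, + strand), the largest rise after M1, has CCGGAAG at 2 places on the opposite strand. Mrpl42 (chr10:95501900-95502199, - strand) and Mrps27 (chr13:99344536-99344835, + strand), both among the largest falls, have AAGATGGC just after the start, and Mrps27 also has CCGGAAG on the opposite strand. The windows of Mrpl16, Mrpl23 and Mrps5, also among the largest falls, held none of the motifs, and Mrps35 had no window. Mrpl32 (chr13:14612988-14613287, - strand), the clearest difference between genotypes, has the NRF1 motif and, on the opposite strand, AAGATGGC. There AAGATGGC lies inside Psma2, a head-to-head neighbour that starts at chr13:14613242.
Mrpl52: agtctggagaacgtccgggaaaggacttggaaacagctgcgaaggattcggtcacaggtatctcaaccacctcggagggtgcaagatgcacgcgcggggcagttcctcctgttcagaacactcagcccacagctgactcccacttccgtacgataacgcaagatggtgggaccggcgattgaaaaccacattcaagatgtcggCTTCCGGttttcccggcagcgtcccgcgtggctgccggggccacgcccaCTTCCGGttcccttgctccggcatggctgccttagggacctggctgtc
Mrpl42: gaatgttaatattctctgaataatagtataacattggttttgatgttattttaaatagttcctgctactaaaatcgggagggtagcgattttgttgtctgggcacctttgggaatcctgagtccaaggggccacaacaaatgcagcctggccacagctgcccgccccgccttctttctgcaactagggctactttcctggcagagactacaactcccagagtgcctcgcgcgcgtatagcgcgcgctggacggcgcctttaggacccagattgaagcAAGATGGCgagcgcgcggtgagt
Mrps27: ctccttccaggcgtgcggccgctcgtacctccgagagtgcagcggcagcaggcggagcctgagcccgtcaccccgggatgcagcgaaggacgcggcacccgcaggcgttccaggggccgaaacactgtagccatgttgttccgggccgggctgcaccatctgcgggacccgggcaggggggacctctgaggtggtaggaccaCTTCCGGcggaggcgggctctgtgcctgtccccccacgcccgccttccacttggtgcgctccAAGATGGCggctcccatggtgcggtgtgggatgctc
Mrpl32: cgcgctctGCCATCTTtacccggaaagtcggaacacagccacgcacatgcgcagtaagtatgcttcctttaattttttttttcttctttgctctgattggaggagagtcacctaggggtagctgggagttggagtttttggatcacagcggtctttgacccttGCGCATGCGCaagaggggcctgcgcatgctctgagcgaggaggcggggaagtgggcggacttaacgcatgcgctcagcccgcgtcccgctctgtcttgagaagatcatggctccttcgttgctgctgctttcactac

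On the deposited TPM scale most of these genes were lower after M1 in both genotypes and a few were higher, while under the rescalings given below most were not called. In M-BKO cells 47 of the 76 members fell and 2 rose, and in WT cells 44 fell and 4 rose, at an adjusted p under 0.05 in limma and a fold over 1.5. That is 61.8% lower and 2.63% higher in M-BKO, where 42.3% of the 10822 genes tested were lower and 12.3% higher, and 57.9% lower and 5.26% higher in WT, where 41.0% were lower and 12.9% higher. The median log2 fold change of the members was -0.74 in M-BKO and -0.71 in WT cells, beside -0.45 and -0.43 over all genes tested. On the TPM scale, whose total is fixed, the typical gene was thus lower. When each library was rescaled by the median ratio, the median of all genes moved to -0.01 in both genotypes. Then 18 members were lower (23.7%) and 6 higher (7.89%) in M-BKO, where 22.3% of all genes were lower and 22.2% higher. In WT cells 19 were lower (25%) and 6 higher (7.89%), where 21.4% of all genes were lower and 22.6% higher. The medians of the members were then -0.29 and -0.26. Quantile normalization gave 29 lower (38.2%) and 4 higher (5.26%) in M-BKO, where 24.4% of all genes were lower and 19.8% higher. In WT cells it gave 32 lower (42.1%) and 5 higher (6.58%), where 23.6% of all genes were lower and 19.7% higher.

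On the TPM scale the libraries of the 2 treatments did not overlap for 73 members in M-BKO (7 above and 66 below the controls) and for 70 in WT (7 above and 63 below). Over all genes tested, 22.7% were above and 66.5% below in M-BKO, and 21.8% above and 62.6% below in WT. Of the falls, 42 were called in both genotypes, 5 in M-BKO alone (Mrpl2, Mrpl24, Mrps11, Mrps22 and Mrps26) and 2 in WT alone (Mrps18c and Mrps28). No member was called in opposite directions. The responses of M-BKO and of WT cells, which share no library, had over the 76 genes a Pearson's r of 0.98 and a Spearman's rho of 0.96. This is a description across genes, which share their libraries and are not independent.

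**Figure D2:**
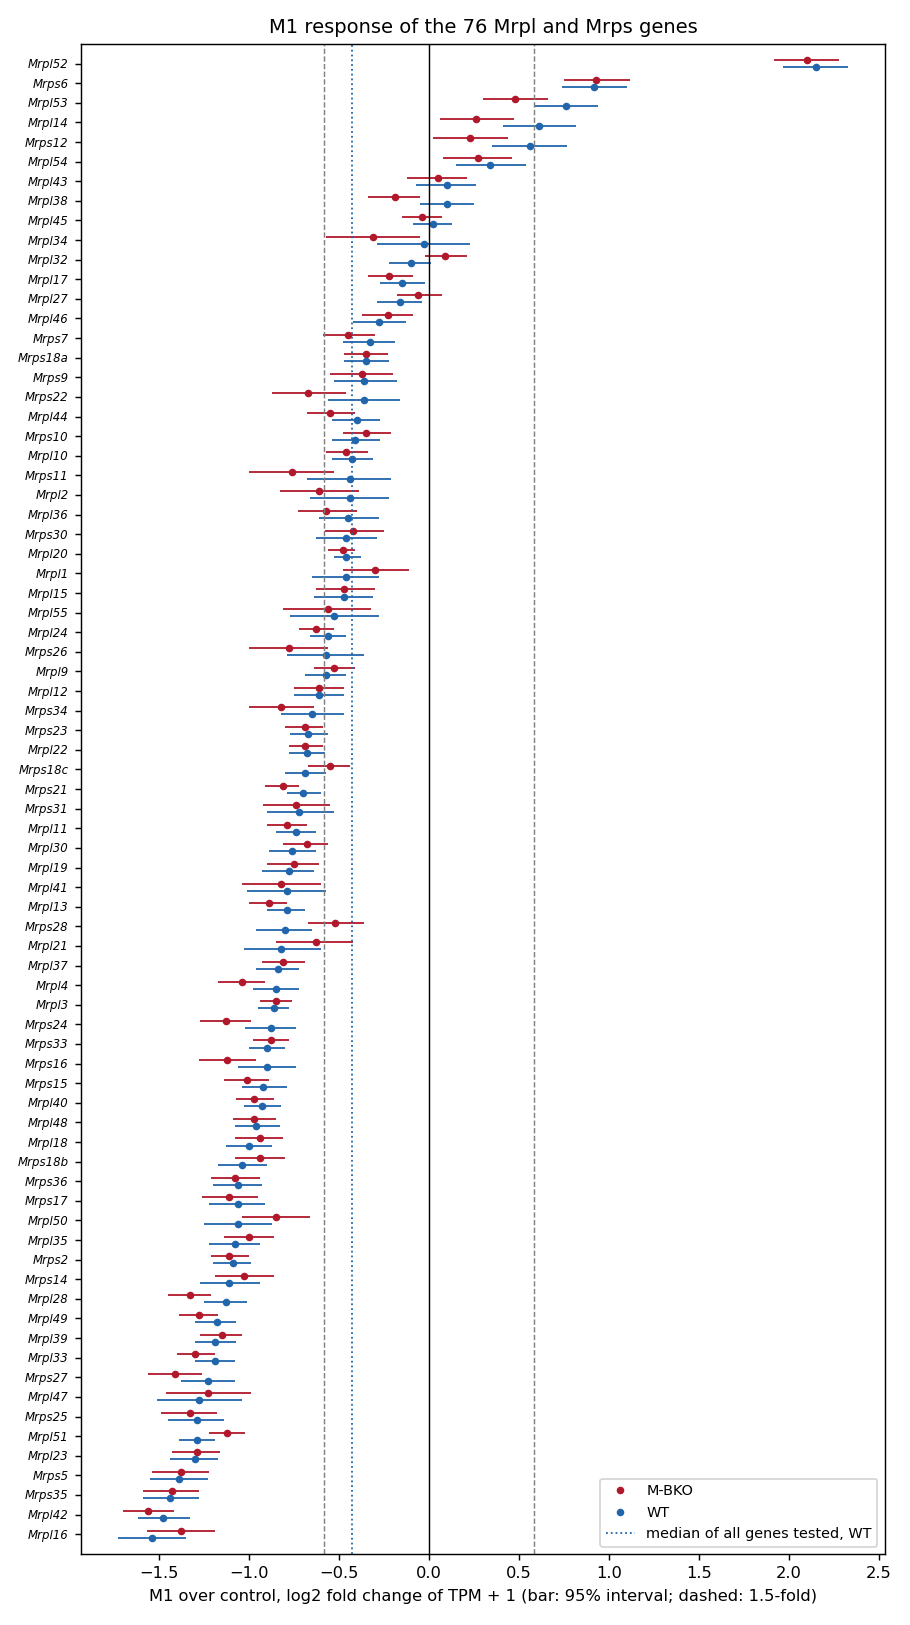
M1 over control log2 fold change of TPM + 1 (x axis) for each of the 76 genes, ordered by the WT value, with 95% intervals, in M-BKO (red, upper point of each row) and WT cells (blue, lower point). Most rows lie left of 0 and left of the dotted median of all genes tested in WT cells (-0.43), Mrpl52 stands alone at 2.10 in M-BKO and 2.15 in WT cells, and the genotypes run side by side.

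The largest rise was that of Mrpl52, a large-subunit protein without a bacterial counterpart. It had 344, 357 and 339 TPM in M-BKO M1 and 320, 365 and 361 TPM in WT M1 libraries, against 74.5, 79.7 and 87.4 TPM in M-BKO and 72.5, 90.5 and 71.1 TPM in WT controls. Every M1 library was far above every control library, and the genotypes overlapped. The mean was 4.31 times that of controls in M-BKO (log2 fold change 2.10 ± 0.084 SE, adjusted p = 1.2e-11) and 4.47 times in WT cells (2.15 ± 0.084, adjusted p = 1e-11), and the rise was 2.58 and 2.62 after median-ratio scaling. The gene that follows Mrpl52 (chr14:54426909-54429750) on the same strand, Mmp14, a membrane-bound matrix metalloproteinase, starts 1854 bp after its end. Mmp14 averaged 563 ± 1.06 TPM in M-BKO M1 and 510 ± 27.4 TPM in WT M1 cells, against 67.6 ± 7.20 TPM in M-BKO and 65.0 ± 3.88 TPM in WT controls (SD, n = 3 each). Whether reads of one were counted for the other was not tested.

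Mrps6, a small-subunit homolog of a bacterial protein, was the other member called higher in both genotypes. It had 32.9, 33.2 and 33.6 TPM in M-BKO M1 and 27.4, 32.1 and 36 TPM in WT M1 libraries, against 15.5, 18.4 and 16.9 TPM in M-BKO and 15.5, 16.6 and 16.8 TPM in WT controls. In both genotypes every M1 library lay above every control library, while the genotypes overlapped. The log2 fold change was 0.93 ± 0.084 (SE, adjusted p = 9.7e-08) in M-BKO and 0.92 ± 0.084 (adjusted p = 1.3e-07) in WT cells. Mrps6 overlaps Slc5a3, a myo-inositol transporter gene on the same strand, so that the authors' counting could split reads between them. Slc5a3 itself was listed at 1.33 TPM in M-BKO M1 and 1.14 TPM in WT M1 cells, against 0.330 and 0.344 TPM in M-BKO and WT controls, far below Mrps6.

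Mrpl53 and Mrpl14, both of the large subunit, were called higher in WT cells alone. Mrpl53 had 50.8, 51.1 and 50.7 TPM in M-BKO M1 and 55.1, 54.5 and 52.7 TPM in WT M1 libraries, against 35.5, 36.3 and 36.8 TPM in M-BKO and 36.2, 32.8 and 26.3 TPM in WT controls. Mrpl14 had 78.3, 84.0 and 79.7 TPM in M-BKO M1 and 91.7, 90.2 and 94.7 TPM in WT M1 libraries, against 68.3, 67.6 and 65.2 TPM in M-BKO and 73.0, 59.6 and 49.5 TPM in WT controls. For both genes M1 libraries lay above controls in each genotype, and the third WT control library was the lowest. The log2 fold changes were 0.48 ± 0.082 in M-BKO and 0.76 ± 0.082 in WT cells for Mrpl53, and 0.26 ± 0.096 and 0.61 ± 0.096 for Mrpl14 (SE). The difference between genotypes in these responses did not pass the test (adjusted p = 0.27 for Mrpl53 and 0.24 for Mrpl14), and the WT rise of Mrpl14 was no longer called without the third WT control library (0.48) or with a pseudocount of 5 (0.58). After median-ratio scaling both genes were called higher in both genotypes, as were Mrps12, which lies at the decoding centre of the small subunit, and Mrpl54. On the deposited scale Mrps12 had a log2 fold change of 0.23 in M-BKO and 0.56 in WT cells, and Mrpl54 of 0.27 and 0.34, short of the fold threshold.

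Neighbours of the members called higher were looked up after their values were seen. Tmem63b, whose start lies 154 bp from that of Mrpl14 on the opposite strand, was also higher after M1, with log2 fold changes of 1.09 in M-BKO and 1.19 in WT cells. Ccdc142, which overlaps the start of Mrpl53 by 13 bp on the same strand, was lower, at -0.82 and -0.92. Over all members, 31 of 76 had a gene starting head to head within 2000 bp, 9 overlapped another gene, 7 of them on the opposite strand, and whether the authors' counting used the strand is not stated. The members lie on 17 chromosomes, at most 10 on one (chromosome 11).

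**Figure D3:**
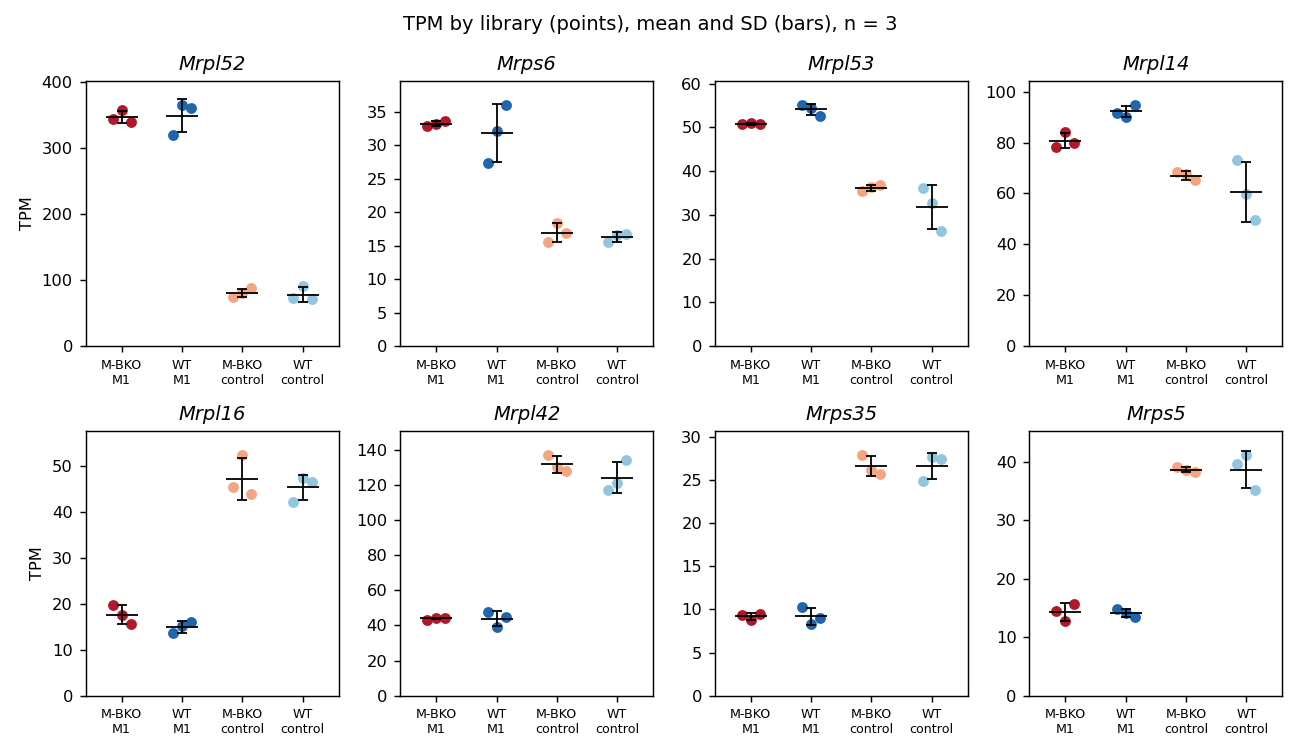
TPM (y axis, from 0) of the members with the largest rises (upper row) and falls (lower row) after M1 in WT cells, by library (points) with the mean and SD of 3 libraries. In the upper row M1 libraries lie above controls in both genotypes, most widely for Mrpl52, and in the lower row every M1 library lies below every control library.

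The largest falls came from both subunits. Mrpl16, a large-subunit homolog of a bacterial protein, had 19.7, 17.6 and 15.6 TPM in M-BKO M1 and 13.6, 15.3 and 16.1 TPM in WT M1 libraries, against 45.5, 52.5 and 43.9 TPM in M-BKO and 42.3, 47.4 and 46.5 TPM in WT controls. Its log2 fold change was -1.38 ± 0.089 (SE, adjusted p = 2.5e-09) in M-BKO and -1.54 ± 0.089 (adjusted p = 7.7e-10) in WT cells. Its mean was 0.372 times that of controls in M-BKO and 0.330 times in WT cells, where its fall was the largest of any member on the scale of log2(TPM + 1). Mrpl42, a large-subunit protein that mitochondria added, had 43.3, 44.3 and 44.2 TPM in M-BKO M1 and 47.4, 39.2 and 45.0 TPM in WT M1 libraries, against 137, 130 and 128 TPM in M-BKO and 117, 121 and 134 TPM in WT controls. On the same scale this was the largest fall in M-BKO cells, at -1.56 ± 0.066 (adjusted p = 2.2e-11), with -1.48 ± 0.066 in WT cells (adjusted p = 4.4e-11). By the ratio of mean TPM the lowest was Mrps25, given above among the members of low level, at 0.322 in M-BKO and 0.328 in WT cells, next to 0.334 for Mrpl42 in M-BKO. Its log2 fold changes were -1.33 and -1.29, since the added 1 weighs more on low genes.

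In the small subunit, Mrps35 averaged 9.21 ± 0.405 TPM in M-BKO M1 and 9.23 ± 1.0 TPM in WT M1 cells, against 26.6 ± 1.18 TPM in M-BKO and 26.6 ± 1.52 TPM in WT controls (SD, n = 3 each). Mrps5, a homolog of a bacterial protein, averaged 14.3 ± 1.51 TPM in M-BKO M1 and 14.1 ± 0.680 TPM in WT M1 cells, against 38.6 ± 0.445 and 38.7 ± 3.12 TPM in M-BKO and WT controls. The 2 genes fell by 1.43 and 1.38 on the log2 scale in M-BKO and by 1.44 and 1.39 in WT cells. Mrps27, a protein with pentatricopeptide repeats, a fold that binds RNA in other proteins, fell by 1.41 in M-BKO and 1.23 in WT cells. Mrpl23, which sits beside the exit of the tunnel for the new protein, fell by 1.29 and 1.30. For these genes, and for Mrpl16 and Mrpl42, no M1 library reached a control library, and the call stood in both genotypes after median-ratio scaling, with log2 fold changes of -1.09 to -0.79.

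Falls were called in both subunits. Of the 26 members of the small subunit 19 were lower and 1 higher in M-BKO, and 18 lower and 1 higher in WT cells, with medians of -0.82 and -0.76. Of the 49 members of the large subunit 27 were lower and 1 higher in M-BKO, and 25 lower and 3 higher in WT cells, with medians of -0.63 and -0.61. After median-ratio scaling the counts for the small subunit were 8 lower (30.8%) and 2 higher in M-BKO and 7 lower (26.9%) and 2 higher in WT. For the large one they were 9 lower (18.4%) and 4 higher in M-BKO and 11 lower (22.4%) and 4 higher in WT. Of all genes tested, 22.3% were then lower and 22.2% higher in M-BKO, and 21.4% lower and 22.6% higher in WT. By descent, of 45 homologs of bacterial proteins 27 were lower in M-BKO and 26 in WT (medians -0.68 and -0.70), and of 30 proteins that mitochondria added 19 and 17 were (medians -0.79 and -0.69), again beside 42.3% and 41.0% of all genes. After median-ratio scaling 10 homologs were lower in each genotype, and 7 added proteins in M-BKO and 8 in WT. The 10 added proteins of the small subunit were all lower in M-BKO and 8 of them in WT cells on the deposited scale, and 3 were in each genotype after median-ratio scaling. Differences between these classes were not tested.

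The stalk of the large subunit, which calls in the translation factors, is built of Mrpl10, Mrpl11 and Mrpl12. Mrpl11 fell by 0.79 in M-BKO and 0.74 in WT cells, Mrpl12 by 0.61 in both, and Mrpl10 had -0.46 and -0.43, under the fold threshold. After median-ratio scaling none of the 3 passed the threshold, and Mrpl10 then stood at 0.02 and 0.03. The call of Mrpl12 was also lost with quantile normalization (-0.43 and -0.47), in M-BKO with a pseudocount of 5 (-0.58), in WT without the second control library (-0.58) and in M-BKO without the first control or the first M1 library (-0.57 and -0.56). Mrpl45, through which the ribosome holds to the inner membrane, was not called, with means of 29.6 TPM in M-BKO M1 and 31.4 TPM in WT M1 cells against 30.4 and 30.9 TPM in M-BKO and WT controls (adjusted p = 0.50 in M-BKO and 0.67 in WT). After median-ratio scaling it stood at 0.44 and 0.48, under the fold threshold.

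The 3 relatives of 1 bacterial protein, Mrps18a, Mrps18b and Mrps18c, had unlike responses, which were not tested against each other. Mrps18a, which despite its name sits in the large subunit, had a log2 fold change of -0.35 in both genotypes. Mrps18b, counted above among the small-subunit proteins that mitochondria added, fell by 0.94 in M-BKO and 1.04 in WT cells. Mrps18c stood at -0.55 in M-BKO and fell by 0.69 in WT cells. Mrps18c was also the most abundant of them, at 106 ± 5.32 TPM in M-BKO M1 and 95.4 ± 5.11 TPM in WT M1 cells, against 155 ± 4.88 and 154 ± 8.33 TPM in M-BKO and WT controls (SD, n = 3 each). Mrps30, another large-subunit protein with a small-subunit name, had -0.42 and -0.46, under the fold threshold. Mrps36, now known from the oxoglutarate dehydrogenase complex of the TCA cycle, fell by 1.08 in M-BKO and 1.06 in WT cells, and by 0.60 and 0.61 after median-ratio scaling.

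Abundant members were found among the called falls and among those not called. Mrpl27, at 107 ± 5.12 TPM in M-BKO M1 and 104 ± 7.36 TPM in WT M1 cells against 112 ± 3.93 and 116 ± 6.56 TPM in M-BKO and WT controls (SD, n = 3 each), had log2 fold changes of -0.06 and -0.16. Mrpl20 had -0.48 and -0.46, under the fold threshold, and Mrps21 fell by 0.81 and 0.70. Across the 76 genes the level in WT controls and the M1 response in M-BKO cells, which share no library, had a Pearson's r of -0.08 and a Spearman's rho of -0.15.

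Few of these genes were called between genotypes. After M1, 3 members were higher and 1 was lower in M-BKO than in WT cells at an adjusted p under 0.05, which is 3.95% and 1.32% of the 76, where 5.87% of all genes tested were higher and 2.45% lower. The median difference was 0.01 over the members and 0.03 over all genes. After median-ratio scaling 2 were higher and 1 lower (3.95% and 4.38% of all genes), with a median of -0.04. In controls 0 of 76 members were called by limma, where 4.56% of all genes were higher and 1.12% lower, with 13 members (17.1%) at an unadjusted p under 0.05, beside 21.0% of all genes. That count was 1 after median-ratio scaling and 2 after quantile normalization. The median difference there was 0.05 over the members, and -0.02 after median-ratio scaling, where again 0 were called (1.31% of all genes higher and 1.83% lower).

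The intervals bounded the differences between genotypes. After M1 the 95% intervals of all 76 members lay within a 1.5-fold difference in either direction, with bounds from -0.47 (Mrps11) to 0.47 (Mrps28) on the log2 scale. In controls they did so as well, with bounds from -0.29 (Mrpl47) to 0.53 (Mrpl34). Libraries of the genotypes did not overlap for 16 members after M1 (10 higher and 6 lower in M-BKO, where 20.8% and 11.1% of all genes were) and for 18 in controls (18 higher and 0 lower, where 22.6% and 3.68% of all genes were). With Lyz2 left out of the total, an alternative added after the data were seen, the median difference was 0.01 in controls.

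Mrpl32, a large-subunit protein that is cut by a protease of the inner membrane before it can be built in, was the clearest difference. It had 49.9, 50.8 and 51.9 TPM in M-BKO M1 libraries, against 38.8, 40.7 and 42.8 TPM in WT M1 libraries, and 49.2, 46.6 and 47.1 TPM in M-BKO controls against 40.7, 45.8 and 45.2 TPM in WT controls. M-BKO libraries lay above WT libraries in both treatments. The difference was 0.31 ± 0.054 after M1 (SE, adjusted p = 0.0028) and 0.12 ± 0.054 in controls (adjusted p = 0.23), and the call after M1 held in all alternatives tried, with adjusted p of 0.0011 to 0.016.

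Mrps28, of the small subunit, had 16.6, 15 and 16 TPM in M-BKO M1 libraries, against 12.7, 13.4 and 11.7 TPM in WT M1 libraries, with 22.5, 24.9 and 22.0 TPM in M-BKO and 22.1, 24.4 and 21.6 TPM in WT controls. The M-BKO M1 libraries all lay above the WT M1 libraries and the controls overlapped. The difference after M1 was 0.31 ± 0.071 (SE, adjusted p = 0.015). Mrps24, a small-subunit homolog of a bacterial protein, went the other way, with 14.9, 16.9 and 14.7 TPM in M-BKO M1 libraries against 17.4, 19.2 and 19.8 TPM in WT M1 libraries, and 34.2, 36.2 and 34.8 TPM in M-BKO against 37.0, 36.1 and 33.3 TPM in WT controls. Its difference after M1 was -0.26 ± 0.066 (adjusted p = 0.026), with no overlap after M1. Mrpl51, of the large subunit, had 33.2, 33.8 and 33.5 TPM in M-BKO M1 libraries against 31.3, 29.3 and 28.3 TPM in WT M1 libraries, a difference of 0.17 ± 0.046 (adjusted p = 0.034), while M-BKO and WT controls averaged 73.9 ± 0.301 and 74.0 ± 2.69 TPM.

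The 4 calls differed in how firmly they stood. Mrps28 lost its call without the third WT M1 library or without the first or the third M-BKO M1 library (adjusted p of 0.054 to 0.077), and Mrps24 without the second or the third WT M1 library or the first or the third M-BKO M1 library (0.086 to 0.11). Mrpl51 lost it after median-ratio scaling (0.11), quantile normalization (0.085), without a variance trend (0.053), with only the groups compared in the fit (0.058), with Lyz2 out of the total (0.064), and when any M-BKO library or the second or the third WT M1 library was left out (0.053 to 0.14). The count of members higher after M1 was 5 without the third WT control or the first WT M1 library, and 1 without the first or the third M-BKO M1 library. The count of members lower was 2 without the third WT control library, and 0 without the second or the third WT M1 or the first or the third M-BKO M1 library.

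**Figure D4:**
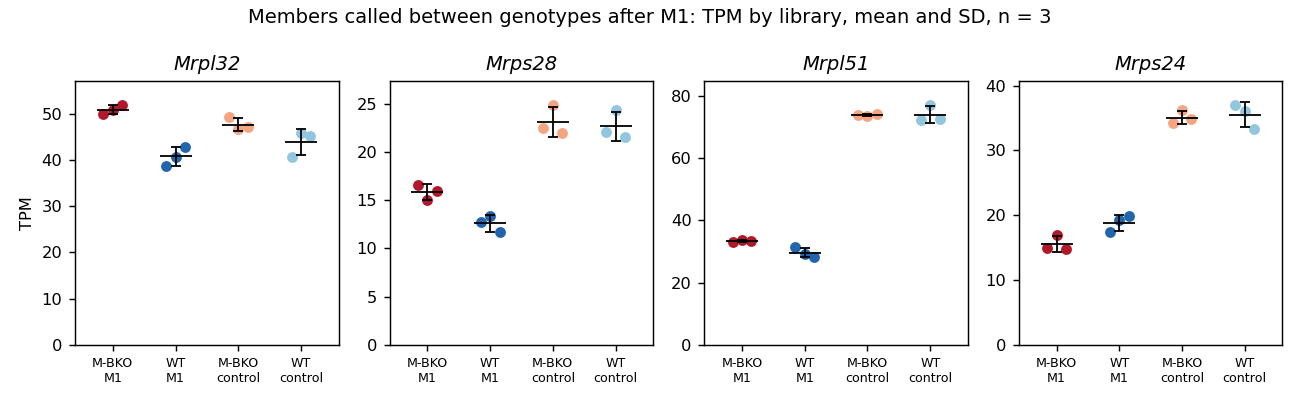
TPM (y axis, from 0) of the 4 members called between genotypes after M1, by library (points) with the mean and SD of 3 libraries. M-BKO M1 libraries lie above WT M1 libraries for Mrpl32, Mrps28 and Mrpl51 and below them for Mrps24, by at most 0.31 on the log2 scale, and the controls of the genotypes overlap except for Mrpl32.

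In controls the smallest p-values belonged to Mrpl4, Mrpl38 and Mrps15, none of them called. Mrpl4, a large-subunit homolog of a bacterial protein, had 68.9, 66.3 and 69.0 TPM in M-BKO controls against 61.7, 64.0 and 54.5 TPM in WT controls, a difference of 0.18 ± 0.060 (SE, adjusted p = 0.10). Mrpl38 and Mrps15 differed by 0.20 and 0.17 (adjusted p = 0.11 and 0.13). Leaving out the first WT control library gave 2 members called higher in M-BKO controls (Mrpl14 and Mrpl53), and leaving out the third gave 3 (Mrpl33, Mrps15 and Mrps22), with none in common.

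The M1 response itself was compared between genotypes as an interaction, in which a negative value means a smaller rise or a deeper fall in M-BKO cells. By limma 0 of 76 members were called, where 0.536% of all genes tested were higher and 0.841% lower, with 11 members (14.5%) at an unadjusted p under 0.05, beside 15.3% of all genes. After median-ratio scaling the count of calls was 0 again, where 0.693% of all genes were called in each direction, and 6 members were at an unadjusted p under 0.05. The smallest p-values were those of Mrpl38 (-0.29, adjusted p = 0.17), Mrps28 (0.29, adjusted p = 0.19) and Mrpl51 (0.17, adjusted p = 0.23). The interval of 71 members lay within a 1.5-fold difference between responses. Those of Mrpl14, Mrpl34, Mrps11, Mrps12 and Mrps22 reached below it, as low as -0.65, so that for these 5 a difference over 1.5-fold lies within the interval that 3 libraries per group allow. Without the first WT control library the interaction of Mrpl14 was called, and without the third that of Mrps22, each lower in M-BKO.

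Responses of members with and without each motif were set side by side. The 5 members with the E-box letters had a median difference between M-BKO and WT of 0.07 after M1 (from -0.07 to 0.15) and 0.09 in controls (0.01 to 0.10), beside 0.01 after M1 and 0.06 in controls for the 62 without. For the M1 response, the median was -0.78 in M-BKO and -0.64 in WT cells for the 12 members with AAGATGGC, against -0.69 and -0.70 for the 55 without it, and -0.54 and -0.48 for the 12 with the NRF1 motif, against -0.81 and -0.82 for the 55 without. With CCGGAAG it was -0.69 and -0.68, against -0.76 and -0.74 without. These are descriptions of small groups, without a test.

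Genes that serve the mitochondrial ribosome were taken from lists by role, and their counts stand beside the 42.3% of all genes lower in M-BKO and 41.0% in WT cells. Their counts after median-ratio scaling stand beside 22.3% of all genes lower and 22.2% higher in M-BKO, and 21.4% lower and 22.6% higher in WT. Of 7 further proteins of the particle that carry other names, 3 were lower in each genotype (42.9%) and none higher, and after median-ratio scaling 1 was lower in M-BKO, and 2 lower and 1 higher in WT cells. Ptcd3, a pentatricopeptide protein of the small subunit, had 11.8, 12.3 and 12.2 TPM in M-BKO M1 and 9.81, 9.51 and 9.94 TPM in WT M1 libraries, against 26.1, 24.9 and 24.5 TPM in M-BKO and 24.0, 21.8 and 26.3 TPM in WT controls. It fell by 1.0 in M-BKO and 1.22 in WT cells and was higher in M-BKO than in WT cells after M1 (0.29 ± 0.064 SE, adjusted p = 0.014). Chchd1, also of the small subunit, fell by 0.96 and 0.81. After median-ratio scaling Chchd1 was not called in either genotype (-0.48 and -0.35) and Ptcd3 in WT cells alone (-0.53 in M-BKO and -0.78 in WT).

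Of 22 assembly factors tested, 16 were lower in M-BKO and 14 in WT cells and none higher (medians -0.77 and -0.67), with 4 lower and 2 higher in M-BKO and 6 lower and 1 higher in WT after median-ratio scaling. Rbfa, which binds the maturing small subunit, averaged 15.1 ± 1.28 TPM in M-BKO M1 and 16.2 ± 0.761 TPM in WT M1 cells, against 57.6 ± 0.851 and 57.2 ± 6.25 TPM in M-BKO and WT controls (SD, n = 3 each), a fall of 1.86 and 1.75 that was larger than that of any Mrpl or Mrps gene. Rpusd4, a pseudouridine synthase of the ribosomal RNA, fell by 1.15 and 1.22. Of 10 translation factors 4 were lower in M-BKO and 5 in WT cells (40% and 50%), and 1 in each genotype after median-ratio scaling. Lower on the deposited scale were the elongation factor Gfm1 (-0.64 and -0.74), whose call median-ratio scaling removed (-0.16 and -0.29), and the release factor relative Mtrf1 (-1.28 and -1.29), whose call it left.

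Of 12 factors for mitochondrial transcription and RNA, 3 were lower in M-BKO and 5 in WT cells (25.0% and 41.7%), and after median-ratio scaling 1 was lower and 2 higher in M-BKO and 1 lower in WT cells. Lrpprc, which stabilises mitochondrial mRNAs, fell by 1.22 in M-BKO and 1.41 in WT cells, and Fastkd5, which processes mitochondrial RNA, by 0.93 and 0.90. Median-ratio scaling left the call of Lrpprc and removed that of Fastkd5 (-0.52 and -0.51). Mtpap, the mitochondrial poly(A) polymerase, was higher in M-BKO than in WT cells after M1, by 0.24 ± 0.069 (SE, adjusted p = 0.048), a call that median-ratio scaling removed. Of 8 regulators of mitochondrial biogenesis tested, 3 were lower and 1 higher in M-BKO and 4 lower and 1 higher in WT cells (37.5% and 50% lower), and after median-ratio scaling 2 were lower and 2 higher in M-BKO and 2 lower and 1 higher in WT cells. Myc had 2.39, 2.39 and 2.79 TPM in M-BKO M1 and 2.34, 2.73 and 2.36 TPM in WT M1 libraries, against 9.79, 8.30 and 8.31 TPM in M-BKO and 9.31, 6.60 and 7.37 TPM in WT controls. It fell by 1.47 and 1.32, and the coactivator Pprc1 by 0.68 and 0.76, a call that median-ratio scaling removed (-0.20 and -0.31). The nuclear receptor Esrra went the other way, at 94.2 ± 4.01 TPM in M-BKO M1 and 94.6 ± 1.83 TPM in WT M1 cells against 55.5 ± 2.67 and 50.9 ± 11.8 TPM in M-BKO and WT controls (SD, n = 3 each), a rise of 0.75 and 0.91. The transcripts of mitochondrial DNA, including the ribosomal RNAs of the particle, were not analysed here. None of the 15 names searched for was found in the deposited expression table.

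Other large machines of the cell gave a measure of scale. Of 76 tested genes for cytosolic ribosomal proteins (Rpl or Rps and a digit, with the S6 kinases of like name left out) 54 were lower and 1 higher in M-BKO and 48 lower and 1 higher in WT cells, with medians of -0.72 and -0.67. Of 81 nuclear genes for the respiratory chain and ATP synthase 40 were lower and 1 higher in M-BKO and 35 lower and 2 higher in WT cells, with medians of -0.58 and -0.49. That is 71.1% and 63.2% lower of the cytosolic and 49.4% and 43.2% lower of the respiratory genes. Of all genes tested, 42.3% were lower and 12.3% higher in M-BKO, and 41.0% lower and 12.9% higher in WT. After median-ratio scaling fewer of both lists were lower. Of all genes tested, 22.3% were then lower and 22.2% higher in M-BKO, and 21.4% lower and 22.6% higher in WT. Of cytosolic ribosomal proteins 3 were lower and 2 higher in M-BKO and 5 lower and 1 higher in WT (medians -0.24 and -0.20), and of respiratory genes 6 lower and 4 higher in M-BKO and 7 lower and 7 higher in WT (medians -0.11 and -0.03), beside the 18 and 19 lower and 6 higher members of the mitochondrial ribosome. These counts stand side by side as a description, and the lists were not tested against each other.

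**Figure D5:**
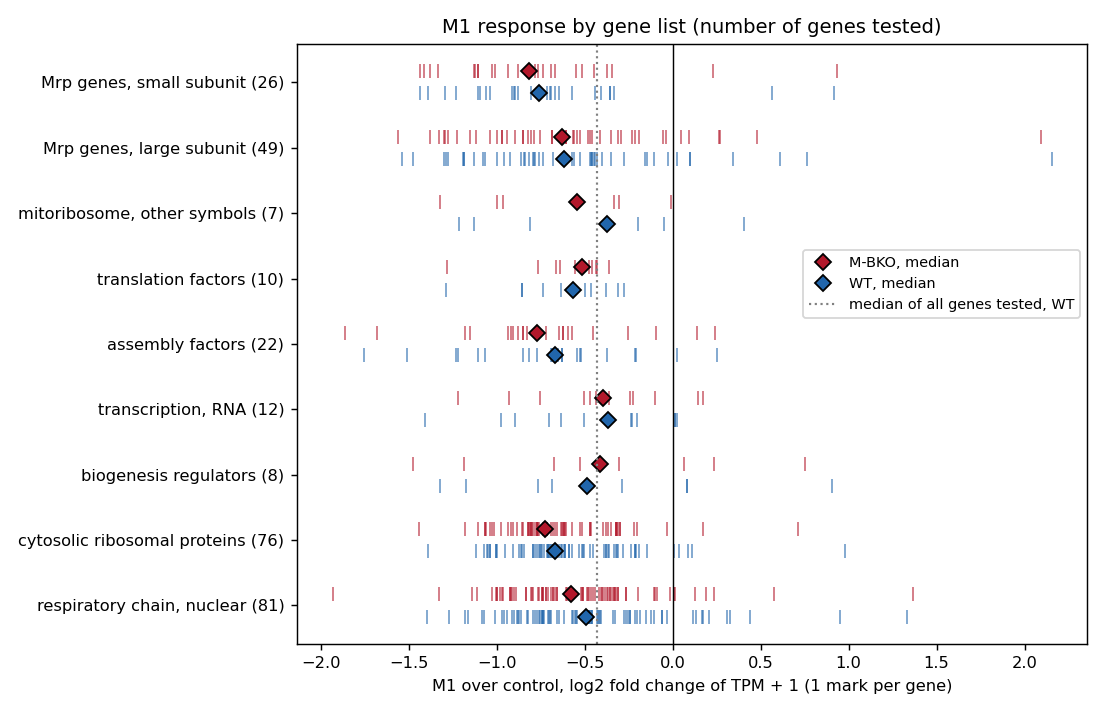
M1 over control log2 fold change of TPM + 1 (x axis) by list, 1 mark per gene tested, with the list median as a diamond, in M-BKO (red, upper) and WT cells (blue, lower). The medians of the Mrpl and Mrps genes (-0.82 and -0.76 for the small and -0.63 and -0.61 for the large subunit, M-BKO and WT) lie left of the dotted median of all genes tested in WT cells (-0.43). In both genotypes so do those of the assembly factors, the translation factors, the cytosolic ribosomal proteins and the nuclear respiratory chain genes.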

How the data were processed

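Stranded mRNA libraries (TruSeq) were made from 12 cultures. After trimming, the authors aligned reads with CLC Genomics Workbench to the mm10 genome and deposited TPM by gene, which sum to 1000000 in each library. The gene annotation and the counting by strand are not given in the sources used here. A second deposited table holds the authors' own fold changes and p-values and was not used, and 0 columns of other samples were present. TPM keep no read counts, so the depth is unknown and precision was taken from the spread between cultures.

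The fit used limma 3.58.1 (R 4.3.3). Values were log2(TPM + 1), genes needed 1 TPM or more in 3 or more libraries, and the model had 4 group means, 8 residual degrees of freedom and a variance trend. A fold change is on this scale, which understates changes of low genes. P-values of the 5 comparisons were adjusted by Benjamini-Hochberg over all genes tested. The calls for M1 responses need an adjusted p under 0.05 and a fold over 1.5, those between genotypes the adjusted p alone. The fit was tested on simulated data.

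Genes named are, by rule, the largest called changes after M1 (up to 5 a direction and genotype), members called between genotypes or with the 3 smallest p, the most and least abundant, those with a place of their own in the ribosome, and up to 2 called genes a direction of each related list. The members follow a rule on names that did not use their values. The choice of this family and of the lists was made with earlier results of these data known. Alternatives varied the pseudocount, filter, scaling, variance model, libraries in the fit and fold threshold.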

Additional observations from a re-analysis of the deposited data

How the results depend on the processing

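Median-ratio scaling gave 6 members higher and 18 lower in M-BKO and 6 higher and 19 lower in WT (medians -0.29 and -0.26), and quantile normalization 4 higher and 29 lower in M-BKO and 5 higher and 32 lower in WT (medians -0.41 in both). A pseudocount of 5 gave medians of -0.63 in M-BKO and -0.61 in WT, and one of 0.1 gave -0.80 in M-BKO. Without the fold threshold 6 members were higher and 66 lower in M-BKO, and 6 higher and 65 lower in WT. Over all genes, higher and lower calls after M1 were 2402 and 2410 in M-BKO and 2445 and 2320 in WT with median-ratio scaling, 2148 and 2641 and 2129 and 2555 with quantile normalization, and 2290 and 6981 and 2424 and 6888 without the fold threshold, against 1333 and 4582 in M-BKO and 1400 and 4435 in WT. Between genotypes after M1, a fit of only the groups compared gave 2 members lower, and the median was -0.04 with median-ratio scaling and -0.03 with quantile normalization. All genes called there were 376 higher with quantile normalization and 474 lower with median-ratio scaling, against 635 and 265. In controls the median was -0.02, -0.01 and 0.01 with median-ratio scaling, quantile normalization and TPM without Lyz2, and all genes called higher were 142, 202 and 198, and 217 with only the groups compared, against 494. Those called lower were 198, 202 and 56 with median-ratio scaling, quantile normalization and only the groups compared, against 121. The interaction median was 0.01 with quantile normalization, and a pseudocount of 5 gave 146 genes with a lower interaction, against 91. Summed TPM without Mrpl52 averaged 2664 in M-BKO M1, 2634 in WT M1, 4248 in M-BKO control and 4071 in WT control libraries. Why the values moved was not tested.

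Leaving out 1 library at a time gave 2 members higher and 46 to 49 lower after M1 in M-BKO (medians -0.75 to -0.71) and 3 to 5 higher and 43 to 46 lower in WT (-0.73 to -0.69). Between genotypes it gave 1 to 5 higher and 0 to 2 lower after M1, 0 to 3 higher in controls and 0 to 1 lower in the interaction. Summed TPM ranged over 2991 to 3029 in M-BKO M1, 2941 to 3020 in WT M1, 4314 to 4343 in M-BKO control and 4118 to 4165 in WT control libraries. All genes called between genotypes moved by more than 1.5 times: 300 to 1267 higher and 146 to 528 lower after M1, 207 to 732 higher and 71 to 144 lower in controls, and 27 to 78 higher and 29 to 133 lower in the interaction.

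No clear pairing by replicate number was seen: residuals of same-numbered libraries had correlations from -0.25 to 0.26. Of the 12 libraries, 5 correlated best with a library that carries the same number. The labels do not say whether a number marks a shared mouse or day, and residuals from means of 3 libraries cannot decide it. A replicate block left 2 members higher and 47 lower after M1 in M-BKO and 4 higher and 44 lower in WT, and changed no call of a member count between genotypes. Precision rests on 3 libraries per group, since TPM hold no depth.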
